A study of Mus musculus with 44 samples.

Results

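The homeodomain gene Hhex and 3 genes of its co-repressor family, Tle1, Tle3 and Tle4, were followed across mouse embryonic stem cells that carry inserted forms of Hex. All 4 genes were found on the array by their platform symbols, with 1 probe set each, so 4 of the 12422 probe sets tested and 4 of the 8251 named genes are described. The cells were CGR8 embryonic stem cells, clone cgr8.8 per the labels, and the series set out to find genes under the control of Hex. The inserted gene sat at Rosa26, a locus active in most mouse cells, and was either Hex or HexERTVP2. The labels do not spell HexERTVP2 out. From its name it is a fusion of Hex with a VP activation domain and with an oestrogen receptor domain, whose ligand is 4-hydroxytamoxifen (4-OHT).

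Hex cells were recombined (4 arrays) or unrecombined (4 arrays), and neither was given 4-OHT as far as the labels say. HexERTVP2 cells came as clone 1 and clone 2. Recombined clone 1 had 4 arrays with 4-OHT and 4 without, and recombined clone 2 had 3 with and 3 without. Unrecombined clone 1 had 3 arrays with 4-OHT and 5 without, and unrecombined clone 2 had 3 with and 3 without. Wild-type CGR8.8 cells, with no inserted gene named, had 4 arrays. Each HexERTVP2 line is 1 clone, the number of Hex clones is not given, and the recombinase, the promoter, the dose and the time of 4-OHT are not given in the sources used here. The labels number the arrays of a group without saying that they came from separate cultures, so p-values measure the spread between these arrays, which may be technical. In bulk RNA, fewer cells with a transcript and less of it per cell cannot be told apart.

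Hex, encoded by Hhex, is a homeodomain protein that marks the anterior endoderm of the early embryo and acts mainly as a repressor. It has no enzymatic activity of its own and represses by recruiting Groucho/TLE proteins. TLE proteins do not bind DNA; they are brought to genes by partners such as Hex, the Hes proteins and the TCF/LEF factors of the Wnt pathway, and they recruit histone deacetylases. Tle1, Tle3 and Tle4 encode full-length co-repressors, whereas the short family member Tle5 lacks the WD40 repeats and can oppose them.

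The unit below is the log2 of the deposited intensity, called the log2 intensity, and a difference is a difference of mean log2 intensities. Among the 40 grouped arrays, array 2 of unrecombined Hex was unlike the rest: its mean correlation with the other assigned arrays was 0.869, against 0.978 to 0.990 for every other assigned array, and its log2 intensities had an SD of 1.60, against 1.79 to 1.98. Its β-actin 3′/5′ ratio, a sign of RNA integrity in which a higher value means fewer 5′ ends, was 2.24 on the log2 scale, inside the range of the others (0.559 to 2.34). Results are therefore given with and without that array. Where it lies outside a comparison it enters only through the shared estimate of spread, so the difference is the same, and a member difference printed with 1 p kept its side of the threshold of 0.05. Array 4 of recombined clone 2 with 4-OHT has an array code with both a plus and a minus sign, so its 4-OHT state rests on the words of its title, and results that turn on it are also given without it. The embryonic stem cell label could only be described, and array 2 of unrecombined Hex is left out of the marker values in this paragraph. All 10 listed markers were measured. Pou5f1 read 10.62 to 12.08 and Nanog 10.43 to 11.63 on their brightest probe sets over the remaining arrays. Another Pou5f1 probe set read 5.13 to 5.76, probe sets cannot be set against each other, and the table has no detection calls, so the cell type rests on the labels. The summed linear intensity of that list lay between 12776 and 15637 over the groups, and that of primitive and visceral endoderm markers between 1335 in wild type and 1657 in unrecombined clone 2 without 4-OHT.

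The stretches just upstream of the TLE genes are shown because Hex and other homeodomain proteins recognise DNA around a TAAT core. They are the 250 bases before the annotated start in RefSeq (GRCm38.p6), with TAAT or its reverse complement ATTA in capitals. All 4 genes matched the RefSeq table; Tle4 has a pair of starts and the one at 14598184 is printed.
Tle3, chr9:61372116-61372365, plus strand: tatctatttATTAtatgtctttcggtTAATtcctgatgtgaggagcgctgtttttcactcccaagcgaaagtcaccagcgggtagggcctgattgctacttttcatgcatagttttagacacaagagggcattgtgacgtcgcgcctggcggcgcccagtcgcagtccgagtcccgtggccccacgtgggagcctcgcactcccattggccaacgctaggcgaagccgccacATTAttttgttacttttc
Tle4, chr19:14598184-14598433, minus strand: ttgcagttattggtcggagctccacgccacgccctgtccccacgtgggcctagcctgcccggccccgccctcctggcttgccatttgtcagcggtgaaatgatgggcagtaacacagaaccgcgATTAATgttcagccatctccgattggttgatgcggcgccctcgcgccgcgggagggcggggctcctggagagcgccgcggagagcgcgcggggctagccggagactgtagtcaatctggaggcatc
Tle1, chr4:72200894-72201143, minus strand: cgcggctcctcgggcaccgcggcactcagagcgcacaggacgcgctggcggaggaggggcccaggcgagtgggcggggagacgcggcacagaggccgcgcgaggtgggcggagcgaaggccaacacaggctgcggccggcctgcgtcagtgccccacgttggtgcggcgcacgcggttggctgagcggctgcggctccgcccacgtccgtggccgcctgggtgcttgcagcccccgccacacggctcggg
The Tle3 stretch held the core 3 times, starting 241, 224 and 18 bases before the annotated start. The Tle4 stretch held it 2 times in the overlapping run ATTAAT, 126 and 124 bases before the start. The Tle1 stretch, the other Tle4 start and the Hhex stretch (chr19:37434591-37434840, plus strand) held 0. The core was present on one strand or the other in 54.9% of the 32851 stretches of the same length in the table, so its presence is common. The TCF/LEF core CTTTGA, or TCAAAG on the other strand, was in 13.8% of all stretches and in 0 of the members'. The Tle3 stretch had a GC content of 52.4%, equal to the median of all stretches, against 65.2% for the printed Tle4 start and 77.2% for Tle1.

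The 4 probe sets differed in how far they moved over the series. Leaving out array 2 of unrecombined Hex, Hhex group means spanned 0.18 on the log2 scale, those of Tle1 0.78, those of Tle3 0.76 and those of Tle4 0.96. The spread between arrays of the same group also differed: the pooled SD within groups was 0.10 for Hhex, 0.13 for Tle1, 0.10 for Tle3 and 0.34 for Tle4. Sorted by mean, the 11 groups gave 10 gaps between neighbours, of which 0 exceeded that pooled SD for Hhex, 1 for Tle1, 3 for Tle3 and 0 for Tle4. For Tle3 those gaps set apart recombined clone 1 with 4-OHT, then recombined clone 2 with 4-OHT, at the top, and the unrecombined clone 2 groups at the bottom. For Tle1 the only such gap lay above unrecombined clone 2 without 4-OHT, the lowest group. Tle4 was highest in the recombined groups with 4-OHT and lowest in recombined Hex, but no neighbouring groups in its order differed beyond the spread.

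**Figure D1:**
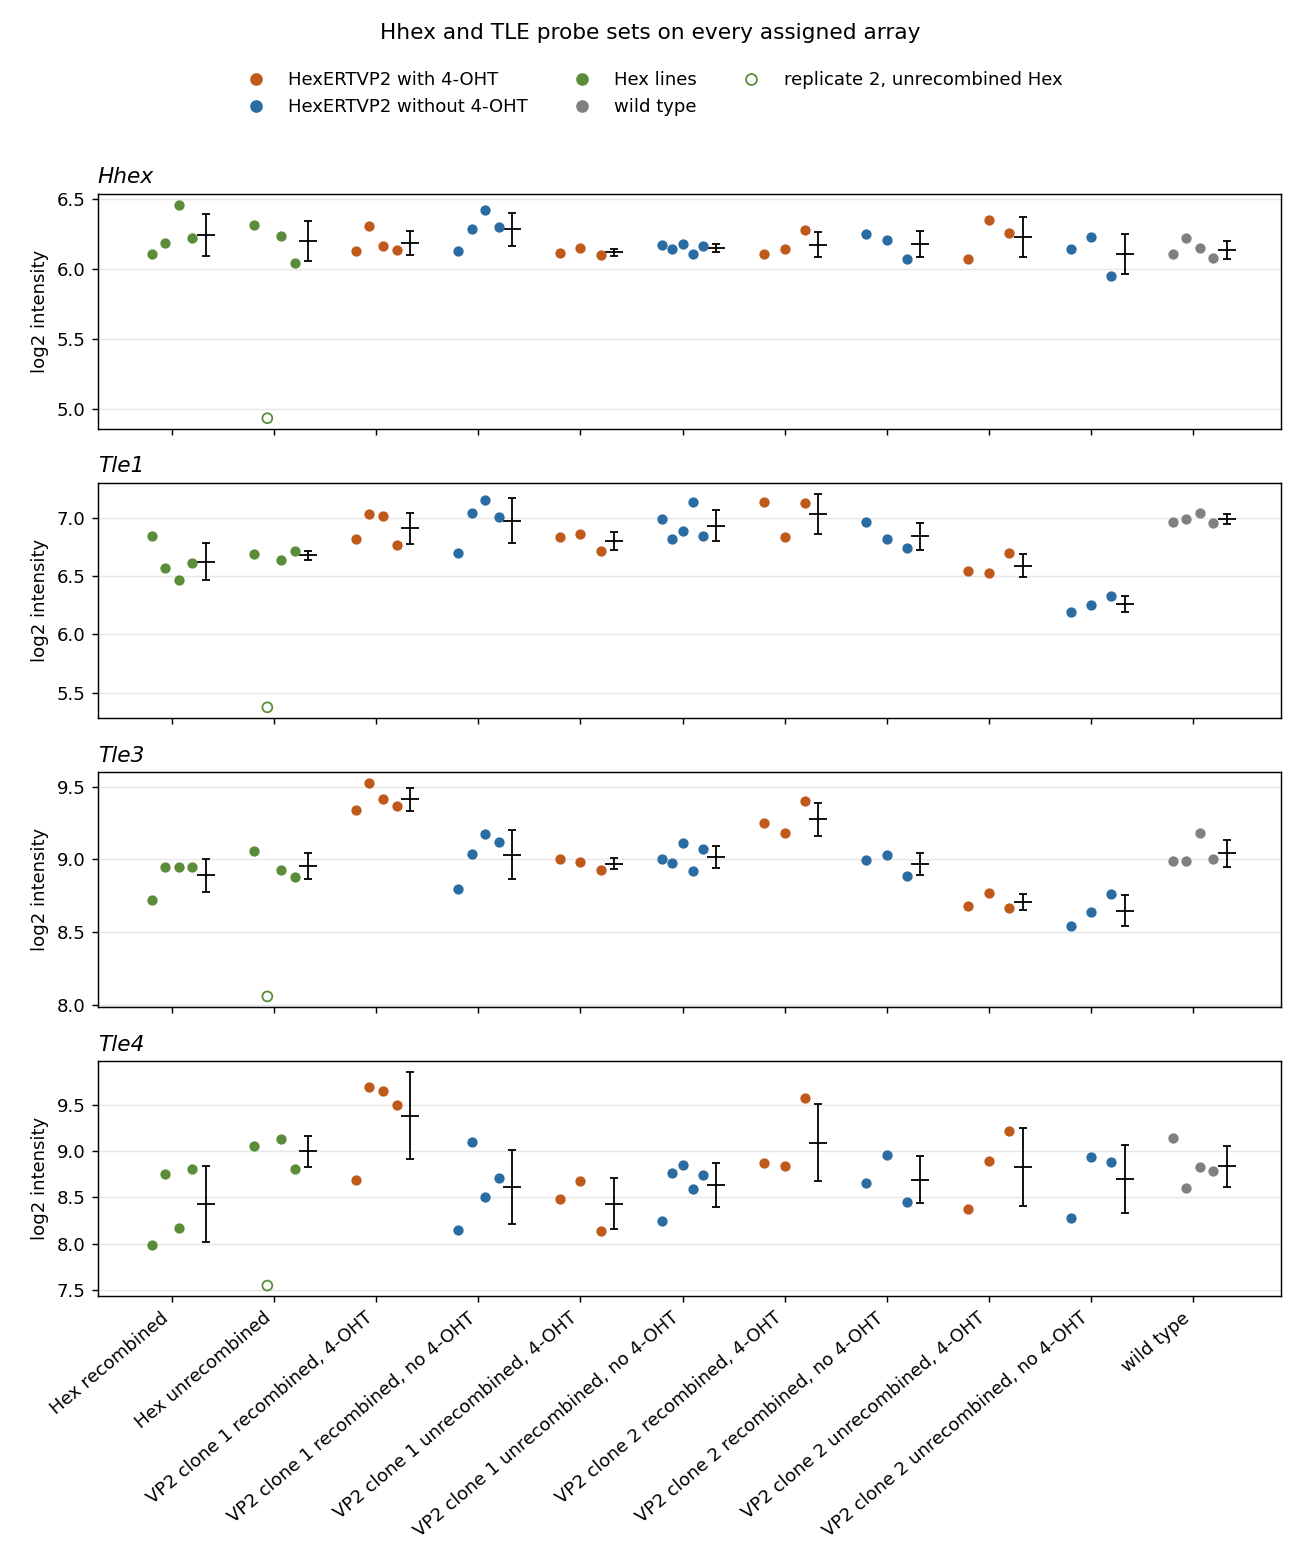
Log2 intensity of the Hhex, Tle1, Tle3 and Tle4 probe sets (y axes, separate scales) on each assigned array (points), by group (x axis; VP2 stands for HexERTVP2), with mean and SD as bars; array 2 of unrecombined Hex (open circle) is left out of the bars. Hhex stays between 5.95 and 6.46 on the other 39 arrays, and Tle3 runs from 9.18 to 9.53 on the 7 recombined HexERTVP2 arrays with 4-OHT, while the highest wild-type array also reads 9.18.

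Hhex is the gene that the inserted constructs carry, and its probe set gave nearly the same value in every group. It read 6.11, 6.19, 6.46 and 6.23 in recombined Hex cells, against 6.32, 4.94, 6.24 and 6.05 in unrecombined Hex cells and 6.11, 6.23, 6.15 and 6.08 in wild type. The 4.94 belongs to array 2, and the other arrays of the 3 groups overlap. Recombined minus unrecombined Hex was 0.36 (SE 0.16, adjusted p = 0.243), and 0.04 (SE 0.08, 95% interval −0.13 to 0.21, adjusted p = 0.829) without array 2. Against wild type, recombined Hex differed by 0.10 (SE 0.16, adjusted p = 0.806, and 0.456 without array 2). The recombined HexERTVP2 groups averaged 6.19 ± 0.08 and 6.29 ± 0.12 in clone 1 with and without 4-OHT (SD, n = 4 each), and 6.18 ± 0.09 in clone 2 either way (SD, n = 3 each). Whether this probe set can see the inserted construct is not known, and the table has no detection calls, so it does not check the labels.

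Tle3 was highest where recombined HexERTVP2 cells had been given 4-OHT. In clone 1 it read 9.34, 9.53, 9.41 and 9.37 with 4-OHT, against 8.79, 9.03, 9.18 and 9.12 without. In clone 2 it read 9.25, 9.18 and 9.40 with 4-OHT, against 8.99, 9.03 and 8.89 without. All arrays with 4-OHT lay above all arrays without it in either clone, which held for 0.0725% of probe sets in this direction. Averaged over the clones the difference was 0.34, a 1.27-fold higher intensity (SE 0.09, adjusted p = 0.579). Without array 2 of unrecombined Hex, an array outside this comparison that enters through the shared estimate of spread, the difference was the same and its SE 0.06, and Tle3 passed the threshold of 0.05 (95% interval 0.23 to 0.46, adjusted p = 0.00203). The differences were 0.38 in clone 1 (adjusted p = 1, and 0.0288 without array 2) and 0.31 in clone 2 (adjusted p = 1 both ways). When the β-actin ratio was added to the fit and array 2 left out, the clone 1 difference was 0.34 and no longer passed (adjusted p = 0.0964), whereas the averaged one was 0.33 and passed (adjusted p = 0.00138). Without array 4 of clone 2 with 4-OHT as well as array 2, a fit added after the values had been seen, Tle3 averaged 0.31 (adjusted p = 0.0124) and differed by 0.25 in clone 2 (adjusted p = 0.781). Of the 4 members 0 passed over all arrays and 1 without array 2, where 0.0322% and 0.145% of all probe sets passed; at an unadjusted limma p under 0.05 the count of members was 2 both ways, beside 1.54% and 3.64%. In clone 1 alone the shares of all probe sets were 0.00805% and 0.0644%, and in clone 2 alone 0% and 0.0161%.

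Tle4 had the larger difference with 4-OHT and the larger spread. In recombined clone 1 it read 8.69, 9.70, 9.65 and 9.50 with 4-OHT, against 8.15, 9.09, 8.50 and 8.71 without. In recombined clone 2 it read 8.87, 8.84 and 9.57 with 4-OHT, against 8.66, 8.96 and 8.45 without. The groups overlap in either clone. In clone 1, array 1 was the lowest of its group with 4-OHT and also the lowest without it. With 4-OHT minus without, same-numbered arrays differed by 0.54, 0.60, 1.15 and 0.79 in clone 1. In clone 2 they differed by 0.21, −0.12 and 1.12. The labels do not say that the numbers pair the arrays. The averaged difference was 0.59, a 1.50-fold higher intensity (SE 0.21, 95% interval 0.16 to 1.02, adjusted p = 1), and without array 2 of unrecombined Hex its SE was 0.18 and its adjusted p 0.482. By size the Tle4 difference stood at percentile 99.95 of the 12422 probe sets, and that of Tle3 at 99.47, while by unadjusted p Tle3 ranked 19 and Tle4 ranked 44. In clone 1 Tle4 differed by 0.77 (SE 0.28) and in clone 2 by 0.40 (SE 0.32). The clone 2 value rests mostly on array 4, the one with the unclear code, which holds the 9.57: without it the clone 2 difference was 0.16 and the averaged one 0.47 (adjusted p = 1 each over the other 39 arrays). Embryonic stem cell and primitive and visceral endoderm markers had 0 passes with 4-OHT in recombined cells, with and without array 2 of unrecombined Hex. At an unadjusted limma p under 0.05 there were 1 and then 2 of 13 probe sets of the first list, beside 1.54% and 3.64% of all. The second list had 0 of 15 both ways.

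Averaged over the clones, Hhex and Tle1 stayed within their spread under the same treatment. Hhex differed by −0.05 (95% interval −0.30 to 0.19) and Tle1 by 0.06 (−0.20 to 0.32), both with an adjusted p of 1, with and without array 2 of unrecombined Hex. For Tle1 the recombined clones went opposite ways. Its means were 6.91 ± 0.14 with 4-OHT and 6.98 ± 0.19 without in clone 1 (SD, n = 4 each). In clone 2 they were 7.04 ± 0.17 and 6.84 ± 0.12 (SD, n = 3 each). Set against each other, the clones' responses to 4-OHT did not differ past the threshold for any member, where 0% of all probe sets passed, with and without array 2 (lowest adjusted p of the 4 members 1 and 0.939): the difference was −0.37 (SE 0.42) for Tle4 and −0.07 (SE 0.19) for Tle3, clone 2 minus clone 1.

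Unrecombined HexERTVP2 cells show what 4-OHT did without recombination. With 4-OHT, Tle3 read 9.00, 8.98 and 8.93 in clone 1 and 8.68, 8.77 and 8.67 in clone 2; without it, 9.00, 8.97, 9.11, 8.92 and 9.07 in clone 1 and 8.54, 8.64 and 8.76 in clone 2. The groups overlap, and the averaged difference was 0.01 (SE 0.10, 95% interval −0.19 to 0.20). Tle4 differed by −0.04 (SE 0.21), Hhex by 0.04 and Tle1 by 0.10, and 0 of 4 members passed, as did 0% of all probe sets; at an unadjusted limma p under 0.05 the count was also 0, beside 1.36%. Without array 2 of unrecombined Hex 0 members and 0% of all probe sets passed too, with 0 members and 4.36% at an unadjusted p under 0.05. The 3 Tle1 arrays of clone 2 with 4-OHT (6.54, 6.53 and 6.70) lay above the 3 without (6.20, 6.25 and 6.33), as did 6.66% of probe sets. In clone 1 the means stood the other way, 6.81 ± 0.08 with 4-OHT (SD, n = 3) and 6.94 ± 0.13 without (SD, n = 5). Recombined minus unrecombined, the 4-OHT response was 0.34 for Tle3 (SE 0.13, adjusted p = 1, and 0.166 without array 2) and 0.63 for Tle4 (SE 0.30, adjusted p = 1, and 0.718 without it). Neither passed, among 0.0161% and 0.0644% of all probe sets, so the response of recombined cells was not shown to differ from that of unrecombined cells.

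**Figure D2:**
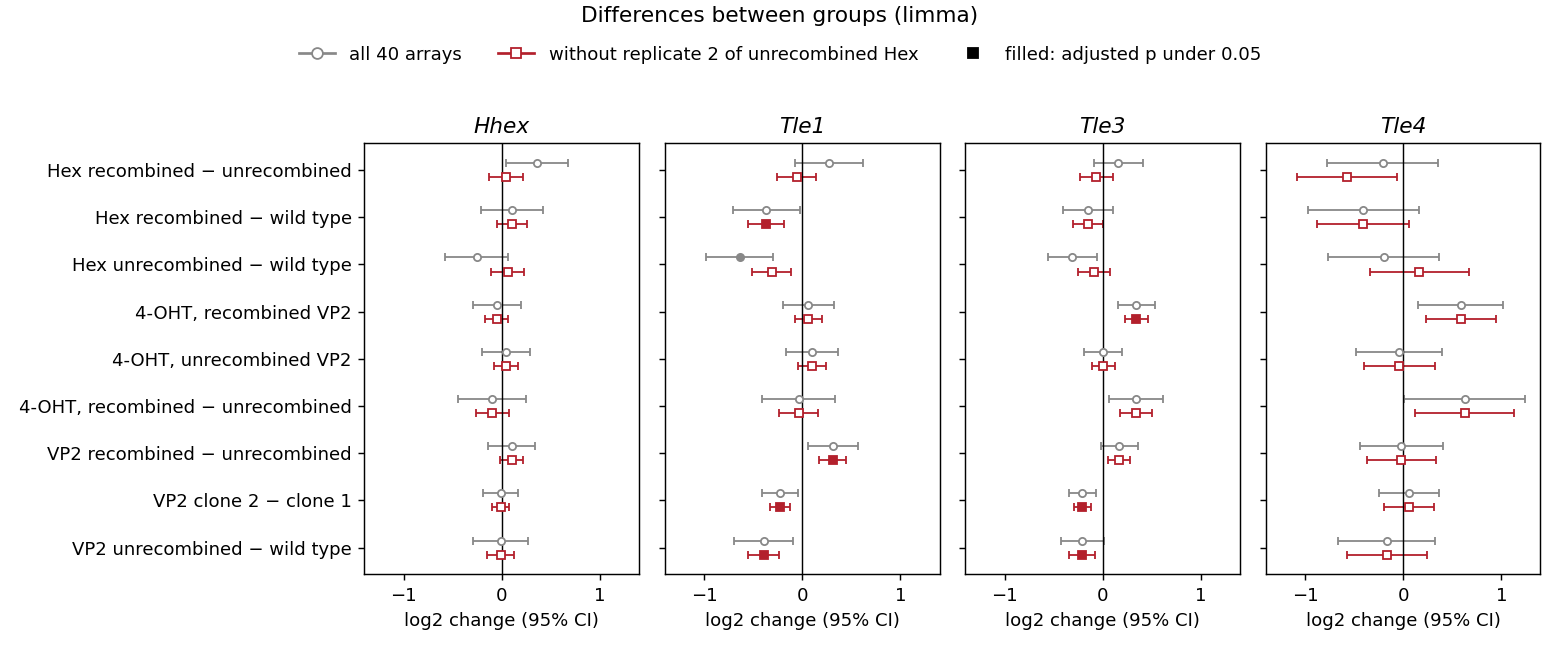
Differences in log2 intensity between groups (x axes, points with 95% intervals from limma) for the 4 members, over all 40 assigned arrays (circles) and without array 2 of unrecombined Hex (squares); VP2 stands for HexERTVP2 and filled symbols have an adjusted p under 0.05. The intervals narrow without that array, and Tle3 with 4-OHT in recombined cells (0.34) is filled only then.

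The β-actin ratio moved with Tle4. Within groups, over 39 arrays, Tle4 was lower where the 3′/5′ ratio was higher, with a Pearson r of −0.61 (permutation p = 0.00087, 0.00348 adjusted over 4 relations) and a Spearman rho of −0.63 (permutation p = 0.00051, adjusted 0.00204). Without the 2 arrays farthest from the median ratio r was −0.59. The relation was −0.29 for Tle3 (rho −0.36, adjusted permutation p = 0.392 and 0.121), −0.07 for Tle1 and −0.03 for Hhex. With 4-OHT minus without, the ratio differed by −0.62 in recombined clone 1 and by 0.32 in recombined clone 2. Mean Tle4 was higher with 4-OHT in each clone. In recombined clone 2 the ratios of arrays 2, 3 and 4 were 1.34, 2.24 and 0.906 with 4-OHT. Without it they were 1.18, 0.906 and 1.44. The part of the ratio in the Tle4 differences was not tested apart from the fits that follow. With the ratio as a covariate and over all arrays the averaged Tle4 difference was 0.50 (SE 0.16, adjusted p = 0.932), made of 0.40 in clone 1 and 0.60 in clone 2. That of Tle3 was 0.32 (SE 0.09, adjusted p = 0.365). Without array 2 of unrecombined Hex the same fit gave 0.51 for Tle4 (SE 0.14, adjusted p = 0.136). For Tle3 it gave 0.33 (SE 0.06, adjusted p = 0.00138), which passed.

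**Figure D3:**
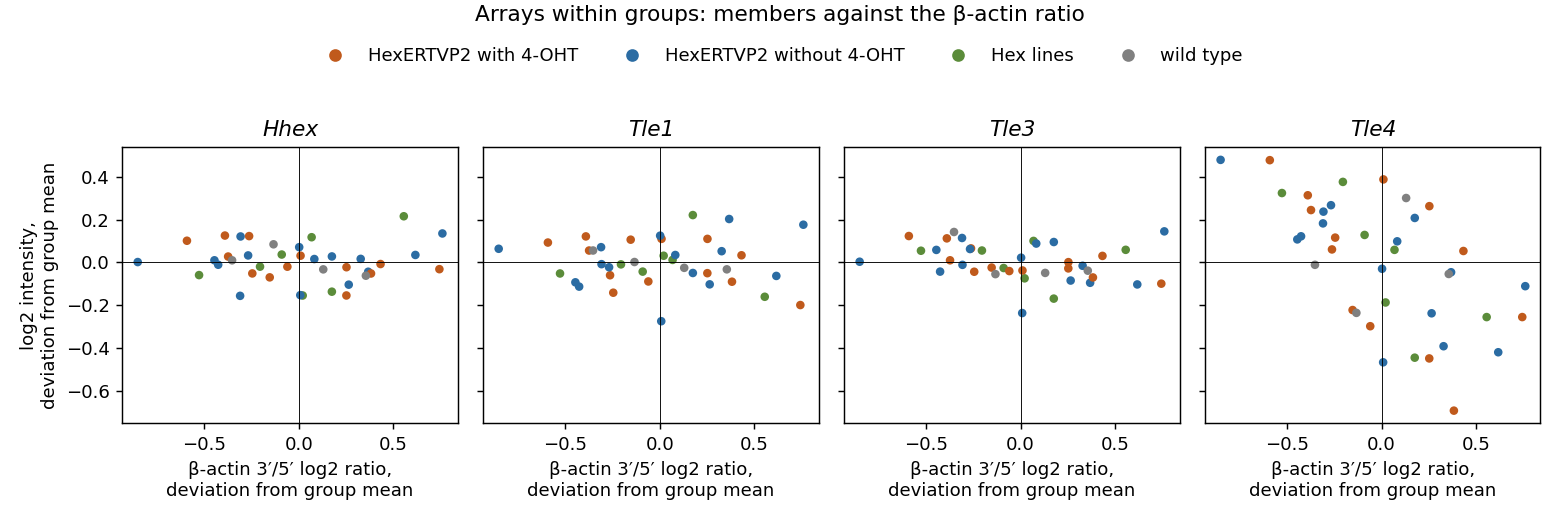
Log2 intensity of each member as a deviation from its group mean (y axes) against the deviation of the β-actin log2 ratio, 3′ over 5′, from its own group mean (x axes); each point is 1 of 39 arrays, coloured by kind of cell. Points of Tle4 run downward (r = −0.61), and those of Hhex and Tle1 lie flat (r = −0.03 and −0.07).

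In cells with Hex itself, Tle4 stood lower with recombination once array 2 was set aside. It read 7.98, 8.75, 8.17 and 8.805 in recombined Hex cells, against 9.06, 7.55, 9.13 and 8.812 in unrecombined Hex cells. Without the 7.55 of array 2 the groups do not overlap, by a margin of 8.805 against 8.812, and the same was true of 9.61% of probe sets in this direction. Over all arrays the difference was −0.21 (SE 0.28, adjusted p = 0.739); without array 2 it was −0.57, a ratio of 0.673 (SE 0.25, 95% interval −1.08 to −0.07, adjusted p = 0.189), at percentile 1.59 of all probe sets. Fitted with the β-actin ratio beside the groups and without array 2 it was −0.61 (SE 0.19) and passed (adjusted p = 0.0309), when 13.2% of all probe sets passed. Over all arrays that fit with the β-actin ratio gave −0.41 (SE 0.21, adjusted p = 0.303) and did not pass. The ratio itself differed by −0.34 between the groups, and by −0.09 without array 2. Tle1 and Tle3 differed by 0.27 and 0.16 (adjusted p = 0.431 and 0.533), and by −0.05 and −0.06 without array 2, so their sign rests on that array. Of the 4 members 0 passed either way, against 3.37% of all probe sets over all arrays and 6.26% without array 2; at an unadjusted limma p under 0.05 the count was 1 either way, beside 15.9% and 19%.

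The sign of the Tle4 difference was negative with recombined Hex and positive with 4-OHT in recombined HexERTVP2, and neither difference passed over all arrays. Tle4 in recombined Hex cells was also 0.41 lower in value than in wild type, which read 9.14, 8.60, 8.82 and 8.78 (SE 0.28, adjusted p = 0.675, and 0.338 without array 2).

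Tle1 was lower in the Hex lines than in wild type. It read 6.85, 6.58, 6.47 and 6.62 in recombined Hex cells and 6.70, 5.37, 6.64 and 6.71 in unrecombined Hex cells, against 6.97, 7.00, 7.05 and 6.96 in wild type. No array of either Hex group reached the wild-type range; 5.46% of probe sets lay below wild type without overlap in recombined Hex, and 7.26% in unrecombined Hex. Unrecombined Hex minus wild type was −0.64 (SE 0.17, adjusted p = 0.0198), a fall past the threshold that rests on array 2: without it the difference was −0.31 (SE 0.10, adjusted p = 0.0765). Recombined Hex minus wild type was −0.36 (SE 0.17, adjusted p = 0.576), and without array 2, which is not in the comparison, its SE was 0.09 and its adjusted p 0.0342. Against wild type, 1 member passed for unrecombined Hex and 0 for recombined Hex over all arrays, beside 4.82% and 0.266% of all probe sets; without array 2 the counts were 0 and 1, beside 3.63% and 1.37%. Embryonic stem cell markers fell on 4 of 13 probe sets in unrecombined Hex against wild type, and without array 2 fell on 2 and rose on 1. In recombined Hex 0 passed either way, with 3 and 4 at an unadjusted limma p under 0.05, beside 8.24% and 17.8% of all probe sets. The part of such markers in the Tle1 difference was not tested.

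Tle1 and Tle3 had their lowest group means in unrecombined clone 2 without 4-OHT. In unrecombined clone 2 without 4-OHT, Tle1 read 6.20, 6.25 and 6.33, below every other assigned array except array 2 of unrecombined Hex. In unrecombined clone 1 without 4-OHT it read 6.99, 6.82, 6.89, 7.14 and 6.84, near the wild-type range of 6.96 to 7.05. Clone 2 minus wild type was −0.73, a ratio of 0.602 (SE 0.18, adjusted p = 0.0136, and 3.45e-06 without array 2), so Tle1 fell; clone 1 minus wild type was −0.06 (SE 0.16, adjusted p = 1). Tle3 in unrecombined clone 2 (8.54, 8.64 and 8.76) also lay below wild type (8.99, 8.99, 9.18 and 9.00), by −0.39 (SE 0.13, adjusted p = 0.0646, and 0.00102 without array 2), while clone 1 differed by −0.02. Unrecombined clone 2 was far from wild type as a whole: 6.79% of all probe sets passed, and 25.4% without array 2, and 13.2% lay below wild type without overlap, so 1 passing member, or 2 without array 2, is not particular to them. Markers of other states moved in the same comparison: primitive and visceral endoderm markers rose on 4 of 15 probe sets and fell on 0 (8 and 0 without array 2; median 0.25), and embryonic stem cell markers rose on 0 of 13 and fell on 3 (1 and 5 without array 2; median −0.21), against a median of 0.07 over all probe sets. Their part in the Tle1 and Tle3 differences was not tested. For unrecombined clone 1 against wild type 0 members passed, beside 0.298% and 1.14% of all probe sets.

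Recombination without 4-OHT went with a higher Tle1 in clone 2. Recombined clone 2 read 6.97, 6.82 and 6.74, above the 6.20 to 6.33 of unrecombined clone 2, a separation in this direction that 11.3% of probe sets showed. The difference was 0.58, or 1.50-fold (SE 0.19, adjusted p = 0.225, and 0.00103 without array 2). Tle3 read 8.99, 9.03 and 8.89 in recombined clone 2, against 8.54, 8.64 and 8.76 in unrecombined clone 2, a difference of 0.32 (SE 0.14, adjusted p = 0.391, and 0.0285 without array 2). In clone 1 the same differences were 0.04 for Tle1 and 0.02 for Tle3. In clone 2 primitive and visceral endoderm markers fell on 1 of 15 probe sets, and on 3 without array 2 (median −0.21), while embryonic stem cell markers rose on 0 of 13, and on 3 without array 2 (median 0.27), against a median of −0.04 over all probe sets; 0 moved the opposite way in either list. Their part in these differences was not tested. The clones differed from each other in this by 0.54 for Tle1 (SE 0.25, adjusted p = 0.646, and 0.032 without array 2) and by 0.31 for Tle3 (SE 0.18, adjusted p = 0.763, and 0.175 without it). These comparisons of the clones apart were added after the values had been seen. Of the 4 members 0 passed in each over all arrays, beside 0.322% of all probe sets in clone 2, 0.547% in clone 1 and 0.29% for the difference; without array 2 the shares were 4.17%, 1.32% and 1.35%.

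Averaged over the clones, recombination without 4-OHT gave 0.31 for Tle1 (SE 0.13, adjusted p = 0.337, and 0.00639 without array 2), 0.17 for Tle3, −0.02 for Tle4 and 0.10 for Hhex. The unrecombined clones together differed from wild type by −0.39 for Tle1 (SE 0.15, adjusted p = 0.19, and 0.00167 without array 2) and by −0.21 for Tle3 (SE 0.11, adjusted p = 0.36, and 0.0443). Over all 4 states clone 2 minus clone 1 was −0.22 for Tle1 (SE 0.09, adjusted p = 0.448, and 0.00479 without array 2), −0.21 for Tle3 (SE 0.07, adjusted p = 0.171, and 0.00151), 0.06 for Tle4 and −0.01 for Hhex. Over all arrays 0 of 4 members passed in each of these, beside 0.467%, 1.46% and 1.22% of all probe sets. Without array 2, 1, 2 and 2 passed, beside 3.38%, 8.13% and 3.25%.

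The other measured member of the family, Tle5, had a narrower range of group means than Tle1, Tle3 or Tle4. Its group means lay between 8.22 in wild type and 8.43 in unrecombined clone 2 without 4-OHT, and 4-OHT in recombined cells gave 0.06 (SE 0.08). The recombined clones went opposite ways, with means of 8.42 with 4-OHT and 8.23 without in clone 1. In clone 2 the means were 8.23 with 4-OHT and 8.30 without. Of the 7 family names looked up, 4 were measured with 1 probe set each. With 4-OHT in recombined cells their median difference was 0.20, against −0.00 over all probe sets. Tle3 (0.34) and Tle4 (0.59) lay above that median, and Tle1 and Tle5 (0.06 each) below it. In unrecombined cells the median was −0.02, against −0.01 over all probe sets.

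Factors that recruit Groucho proteins, of which 26 of 32 were measured by 33 probe sets, did not pass with 4-OHT in recombined cells, over all arrays or without array 2 (0 rose and 0 fell, median 0.01). At an unadjusted limma p under 0.05 the counts were 0 and 2, beside 1.54% and 3.64% of all probe sets. Between recombined and unrecombined Hex, 0 rose and 1 fell over all arrays: Hes6, a Hes-family factor that binds Groucho through a WRPW motif, fell by 0.62 (adjusted p = 0.0471), 1 of 33 probe sets beside 3.37% of all. Without array 2, 1 rose and 3 fell, 4 of 33 beside 6.26% of all. The homeodomain repressor Hesx1 rose by 0.49 (adjusted p = 2.86e-04), while Hes6 fell by 0.87 (3.46e-04), Mycn by 0.57 (0.00671) and the Wnt pathway factor Lef1 by 0.34 on 1 of its probe sets (0.0326). The median of the list was 0.01 over all arrays and 0.12 without array 2, against 0.01 and 0.04 over all probe sets. In unrecombined Hex against wild type 3 of 33 rose and 0 fell, beside 4.82% of all probe sets (3 of 33 beside 3.63% without array 2): Hes6 rose by 0.77 (adjusted p = 0.00838) and both Lef1 probe sets by 0.29 and 0.34. Without array 2, Hes6 rose by 1.02 (adjusted p = 5.46e-05) and 1 Lef1 probe set by 0.36 (0.034), while Prdm1, a zinc-finger repressor, fell by 0.29 (0.0319). In clone 2 against clone 1 the homeodomain factor En2 rose by 0.26 (adjusted p = 0.00684), 1 of 33 probe sets beside 1.22% of all, joined without array 2, when 3.25% of all passed, by Prdm1, which rose by 0.16 (0.0222). In unrecombined clone 2 against wild type Tcf7l2, a TCF factor that binds TLE proteins, rose by 0.36 on 1 of its probe sets (adjusted p = 0.0134), 1 of 33 beside 6.79% of all; without array 2, 10 of the 33 probe sets rose and 3 fell, when 25.4% of all probe sets passed.

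Enzymes and cofactors that act with Groucho proteins, of which 9 of 15 were measured by 16 probe sets, gave 1 rise and 0 falls between recombined and unrecombined Hex, beside 3.37% of all probe sets. Csnk2a2, a catalytic subunit of casein kinase 2, rose by 0.47 on 1 probe set (adjusted p = 0.0235). Without array 2, when 6.26% of all passed, there were 0 rises and 2 falls, the histone deacetylase Hdac2 by 0.45 (adjusted p = 0.00229) and the kinase subunit Csnk2a1 by 0.53 (0.00694). In unrecombined Hex against wild type Xiap, a ubiquitin ligase that modifies TLE3, rose by 0.38 on 1 of its 3 probe sets (adjusted p = 0.0151), the only pass of 16 beside 4.82% of all. Without array 2, when 3.63% of all passed, that value was 0.25 (adjusted p = 0.099) and the kinase Hipk2 fell by 0.28 (0.045). For recombination without 4-OHT 0 passed over all arrays, with 3 of 16 at an unadjusted limma p under 0.05, beside 10.7% of all. Without array 2 there were 3 rises, beside 3.38% of all, Hdac2 by 0.28 (adjusted p = 0.013) and Csnk2a2 by 0.38 and 0.20 on 2 probe sets. With 4-OHT, in recombined or unrecombined cells, 0 of the 16 passed. At an unadjusted limma p under 0.05 the counts over all arrays were 0 and 0, beside 1.54% and 1.36% of all. Without array 2 they were 1 and 0, beside 3.64% and 4.36% of all.

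Partners and reported targets of Hex, of which 15 of 19 were measured by 22 probe sets, had 0 passes in every planned comparison over all arrays, with 0 to 5 of 22 at an unadjusted limma p under 0.05; the 5 were in unrecombined Hex against wild type, beside 25.6% of all probe sets. Without array 2 there was at most 1 pass of 22 in a planned comparison. The list was chosen with earlier results of these data known, so a pass is no independent support for a target of Hex. Without array 2, Nodal, a TGF-β family signal of the early embryo, fell by 0.89 between recombined and unrecombined Hex (adjusted p = 2.17e-04). That was 1 of 22 probe sets beside 6.26% of all. Nodal also fell by 0.55 between recombined Hex and wild type (0.0427), 1 of 22 beside 1.37% of all. Pml fell by 0.33 with recombination without 4-OHT, also without array 2 (adjusted p = 0.0456), 1 of 22 beside 3.38% of all. With 4-OHT in recombined cells Nodal differed by 0.46 (SE 0.14, adjusted p = 1, and 0.0916 without array 2).

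The genes whose pattern was most like that of each member were sought among 5602 probe sets above the median intensity, by the Pearson correlation of the 11 group means; it is a description without a test, and the means share arrays and normalisation. For Tle4 the nearest was Nodal (r = 0.85, and 0.88 without array 2). Tle4 followed the β-actin ratio within groups, and the part of that ratio in this likeness was not tested. Its next names were Tbc1d1 and Taf1c over all arrays, and Wdr77 and Racgap1 without array 2. Tle1 and Tle3 shared Klf4, a pluripotency factor, among their nearest 5 (r = 0.96 and 0.89, and 0.95 and 0.87 without array 2), with Fcf1 nearest to Tle1 over all arrays (0.98), Caml without array 2 (0.96), and Brox nearest to Tle3 both ways (0.92 and 0.90). For Hhex, whose means hardly differ, the nearest changed with array 2, Asah1 with it (0.93) and Eid1 without it (0.90). Among the members, Tle1 and Tle3 were the most alike (0.82, and 0.79 without array 2), then Tle3 and Tle4 (0.65 and 0.62). Hhex had at most 0.52 with any of them, and at most 0.18 without array 2.

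**Figure D4:**
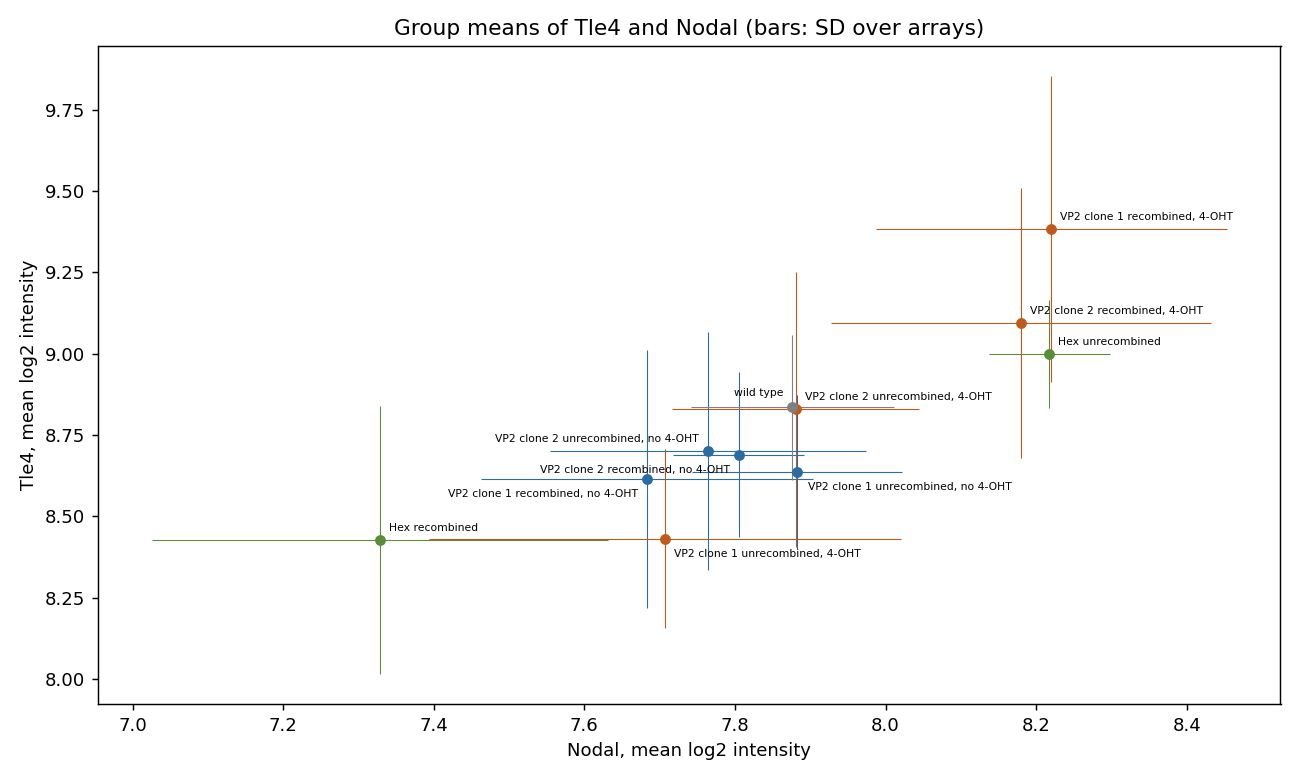
Mean log2 intensity of Tle4 (y axis) against that of Nodal (x axis) in the 11 groups, with SD over arrays as bars; array 2 of unrecombined Hex is left out and VP2 stands for HexERTVP2. The recombined HexERTVP2 groups with 4-OHT lie at the upper right (Tle4 9.38 and 9.09, Nodal 8.22 and 8.18) beside unrecombined Hex (9.00 and 8.22), and recombined Hex at the lower left (8.43 and 7.33).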

How the data were processed

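Total RNA, labelled with biotin, was hybridised to 44 MG-U74Av2 arrays (Affymetrix), 1 channel each, per the labels. The deposited table gives linear intensity values per probe set, made by the authors with RMA per the submitters' processing notes, without a version. Intensities are relative, so the number of arrays limits the precision.

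Values were converted to log2. The table holds 12488 probe sets; the tests used 12422, with no intensity filter, after 66 controls were removed. Platform symbols named 10833 (1 symbol each), while 396 had several and 1193 none. The files name no genome build; promoter stretches come from RefSeq's GRCm38.p6 table.

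Groups came from the labels; 4 arrays whose titles contradict themselves were left out of every comparison. All 40 grouped arrays were fitted in limma 3.58.1 (R 4.3.3; 11 groups, 29 residual degrees of freedom, 28 without array 2 of unrecombined Hex), with Benjamini-Hochberg adjustment over 12422 probe sets and a threshold of 0.05. There were 12 planned comparisons and 5 added after the values had been seen. Members and lists were chosen with earlier results of these data known. Not every passing member of a list is named in the text, and each member's 5 nearest patterns were taken from group means. Scripts were tested on simulated data.

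Same-numbered arrays with and without 4-OHT deviated together in recombined clone 1 (4 pairs, mean r 0.55, lowest 0.31), from the values rather than the labels; in the other comparisons not every pair did. Alternatives were median centring, quantile normalisation, an offset of 16, an intensity filter at the median, trended and robust moderation, array weights, the β-actin ratio as a covariate, fits of only the groups compared, a replicate block and leaving out each array.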

Additional observations from a re-analysis of the deposited data

Results flagged for a closer look

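In groups of 4 or 5 arrays, 24 combinations of member and group were examined for a value far from the rest, and 4 had one, where chance alone would give about 5% of such combinations. Tle1 read 5.37 on array 2 of unrecombined Hex, and the nearest other array of the group read 6.64. Tle3 read 8.72 on array 1 of recombined Hex, and the other 3 all read 8.95. Tle3 read 9.18 on array 3 of wild type, and the next read 9.00. Hhex read 6.31 on array 2 of recombined clone 1 with 4-OHT, and the next read 6.16.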

How the results depend on the processing

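Unless a value is given as a difference, numbers here count the 4 member probe sets with an adjusted p under 0.05. No share of all probe sets is set beside these counts, so they do not show that a change is particular to the members. Between recombined and unrecombined Hex that share was 3.37% over all arrays. With the β-actin covariate and without array 2 of unrecombined Hex it was 13.2%. Without array 2 of unrecombined Hex, which enters every comparison through the shared spread, the count was 1 for recombined Hex against wild type, 1 for 4-OHT in recombined cells, 1 for it in clone 1, 1 for recombination without 4-OHT, 2 for it in clone 2, 1 for the clones' difference in it, 2 for clone 2 against clone 1 and 2 for the unrecombined clones against wild type, each 0 over all arrays; leaving out any other array of those groups kept 0, so the ranges run from 0 to 1 or from 0 to 2. For unrecombined Hex against wild type (1 over all arrays) the range was 0 to 2, with 0 also without array 2 or 3 of wild type and 2 without array 1 of unrecombined Hex; for unrecombined clone 2 against wild type (1) it was 1 to 2. Array weights gave 1 for recombined Hex against wild type, 1 for 4-OHT in recombined cells and 1 in its clone 2, 2 for recombination without 4-OHT, 2 for it in clone 2 and 1 for the clones' difference in it, 2 for clone 2 against clone 1, and 2 each for the unrecombined clones and for clone 2 against wild type. The β-actin ratio as a covariate without array 2 gave the same counts as array weights where both are named, except that 4-OHT in clone 2 stayed at 0, and it gave 1 (Tle4) for recombined against unrecombined Hex; the ratio over all arrays gave 2 for unrecombined clone 2 against wild type. Quantile normalisation gave 1 for 4-OHT in recombined cells and 1 for clone 2 against clone 1. With only the compared groups fitted there were 2 for clone 2 against clone 1, 1 for the unrecombined clones and 2 for clone 2 against wild type, and 0 for unrecombined Hex against wild type. The intensity filter, which drops Tle1 and Hhex, left 0 for unrecombined Hex and 0 for unrecombined clone 2 against wild type. Median centring, the offset of 16, trended and robust moderation and the replicate block changed no count. Without array 4 of recombined clone 2 with 4-OHT as well as array 2 of unrecombined Hex, chosen after seeing the data, the counts were 1 for 4-OHT in recombined cells and 2 for clone 2 against clone 1. The block left Tle3 at 0.34 and Tle4 at 0.59 for 4-OHT in recombined cells, and within recombined clone 1, where same-numbered arrays deviated together, Tle3 at 0.38 and Tle4 at 0.77, none past the threshold.

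Of single member differences, 501 of 555 kept their direction and side of the threshold under these alternatives, 33 newly passed, 1 ceased to pass and 20 changed sign; with 1 array left out the numbers were 744 of 794, 13, 3 and 34. Those that changed sign, all below the threshold, were as follows. Under array weights, recombined minus unrecombined Hex was −0.025 for Tle1, −0.093 for Tle3 and −0.038 for Hhex, unrecombined Hex minus wild type was 0.23 for Tle4 and 0.090 for Hhex, 4-OHT in unrecombined cells was 0.0077 for Tle4 and −0.0071 for Tle3, and unrecombined clone 1 minus wild type was 0.0074 for Tle3. With the β-actin covariate over all arrays, 4-OHT gave 0.049 for Hhex in recombined clone 2 and 0.087 for Tle4 in unrecombined cells, its difference between clones was 0.20 for Tle4 and 0.085 for Tle3, and recombination without 4-OHT gave 0.24 for Tle4. With that covariate and without array 2, recombined minus unrecombined Hex was −0.057 for Tle1 and −0.070 for Tle3, unrecombined Hex minus wild type 0.18 for Tle4 and 0.061 for Hhex, the clones' difference with 4-OHT 0.089 for Tle4, 4-OHT in unrecombined cells 0.062 for Tle4 and recombination without 4-OHT 0.19 for Tle4. Leaving out 1 array, recombined minus unrecombined Hex ran from −0.055 to 0.39 for Tle1 and from −0.064 to 0.27 for Tle3, and unrecombined Hex minus wild type from −0.36 to 0.16 for Tle4 and from −0.40 to 0.061 for Hhex. For 4-OHT the ranges were −0.055 to 0.033 for Hhex in recombined clone 2, −0.14 to 0.0054 for Tle3 in the difference between clones, −0.019 to 0.035 for Tle3 and −0.14 to 0.074 for Tle4 in unrecombined cells, and −0.083 to 0.013 for Tle1 in recombined minus unrecombined cells. Recombination without 4-OHT ran from −0.12 to 0.061 for Tle4 and, in clone 1, from −0.033 to 0.095 for Tle3 and from −0.017 to 0.13 for Tle1; clone 2 minus clone 1 from −0.028 to 0.0066 for Hhex; the unrecombined clones minus wild type from −0.039 to 0.030 for Hhex; and unrecombined clone 1 minus wild type from −0.049 to 0.023 for Tle3. The causes were not tested.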

Other observations

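In 4 arrays the words of the title name another clone or treatment than the array code. In the order used below, words and code of the first, unrecombined with 4-OHT either way, differ in clone. Those of the second, unrecombined, differ in 4-OHT. Those of the third, recombined, differ in both. Those of the fourth, recombined with 4-OHT either way, differ in clone. These 4 arrays therefore belong to no group here. They read 6.05, 6.16, 6.02 and 6.08 for Hhex, 7.08, 6.45, 6.76 and 6.97 for Tle1, 8.93, 8.70, 8.98 and 9.47 for Tle3, and 8.04, 8.98, 8.54 and 9.16 for Tle4, in the order of their accession, with β-actin 3′/5′ log2 ratios of 2.84, 0.858, 1.82 and 1.53.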
